A study of Homo sapiens with 4 samples.

Results

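The genes described here are the metallothioneins together with the transporters, chaperones and regulators that handle zinc and copper. They were taken by symbol from a list of 43 genes, all of which are present among the 28103 symbols of the count table, and they comprise 10 metallothionein genes, the factors MTF1 and MTF2, 9 zinc exporters of the SLC30 family, 12 importers of the SLC39 family and 10 copper genes. The list was chosen by gene role and by the knockdown-over-Ctrl fold changes of these same libraries, the metallothioneins for their fall, so that difference is given for them as a description and supports nothing about the choice. Of the 43 genes, 37 passed the filter on low counts and were tested. The 6 that did not pass were MT1A, MT1H, MT1M, SLC30A2, SLC30A4 and SLC39A2.

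RNA with poly(A) tails was measured by strand-marking RNA-seq in HEL, an established human erythroleukaemia cell line that the labels describe as erythroblast. The tested condition was AFF4 knockdown (AFF4_KD, 2 libraries), and its comparison was Ctrl (2 libraries, genotype WT). AFF4 holds together the super elongation complex, which helps paused RNA polymerase II into elongation, and the series asks how its loss changes that release. The labels do not say how AFF4 was knocked down, nor whether the 2 libraries of a group came from separate cultures. The p-values therefore reflect library-to-library spread alone, and that spread may be technical.

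Metallothioneins are small proteins rich in cysteine, which hold zinc and copper and buffer the free metal in the cytosol. When free zinc rises, the zinc-finger factor MTF1 enters the nucleus and binds metal response elements (MREs), short sequences with the core TGCACNC or TGCGCNC, in the promoters of the metallothionein genes and of the zinc exporter gene SLC30A1. SLC30 proteins (ZnT) move zinc out of the cytosol, to the outside or into organelles, and SLC39 proteins (ZIP) move it in. Glucocorticoids and cadmium also induce metallothioneins.

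The promoters of MT2A and MT1X, 2 of the genes with the steepest falls, are shown with their matches to the MRE core. That of SLC30A1, the exporter known to share their regulator, is shown in the same way. The windows run from 250 bases before to 50 after the annotated start (RefSeq, GRCh38.p14), in the direction of transcription, and capitals mark every MRE core on either strand. On the opposite strand the core reads GNGTGCA or GNGCGCA. They lie at chr16:56608334-56608633 on the plus strand for MT2A, chr16:56682220-56682519 on the plus strand for MT1X and chr1:211579112-211579411 on the minus strand for SLC30A1.
MT2A: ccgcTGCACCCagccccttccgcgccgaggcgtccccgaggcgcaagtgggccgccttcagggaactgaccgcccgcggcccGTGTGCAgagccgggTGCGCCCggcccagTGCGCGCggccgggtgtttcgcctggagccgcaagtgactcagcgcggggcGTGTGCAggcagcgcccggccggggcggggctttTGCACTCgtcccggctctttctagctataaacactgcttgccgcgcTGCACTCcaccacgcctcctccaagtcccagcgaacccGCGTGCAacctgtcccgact
MT1X: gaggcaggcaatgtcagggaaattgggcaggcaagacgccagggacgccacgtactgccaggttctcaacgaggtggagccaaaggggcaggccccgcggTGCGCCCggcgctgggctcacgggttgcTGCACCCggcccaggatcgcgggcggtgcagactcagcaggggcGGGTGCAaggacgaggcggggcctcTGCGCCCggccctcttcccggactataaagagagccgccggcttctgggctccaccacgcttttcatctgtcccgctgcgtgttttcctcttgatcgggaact
SLC30A1: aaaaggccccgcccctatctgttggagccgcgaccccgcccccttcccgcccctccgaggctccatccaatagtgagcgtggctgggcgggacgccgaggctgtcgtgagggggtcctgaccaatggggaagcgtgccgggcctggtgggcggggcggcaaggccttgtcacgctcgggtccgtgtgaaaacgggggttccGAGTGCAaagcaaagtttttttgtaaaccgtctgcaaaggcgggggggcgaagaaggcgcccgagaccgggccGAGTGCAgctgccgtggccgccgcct

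MT2A held 8 MRE cores and MT1X 4, counting overlapping matches as 1, and SLC30A1 held 2. Among 35116 promoter windows of the same length in the RefSeq table, 29.6% held at least 1 core, 7.51% at least 2, 0.339% at least 4 and 0.0171% at least 8. Promoter windows matched 32 of the 43 genes, 3 of them metallothioneins. No window was matched for MT1A, MT1E, MT1F, MT1G, MT1L, MT1M, MT1JP, SLC39A4, SLC39A14, SLC31A2 and SCO2. MT1H, the other matched metallothionein, also held 8 cores, although it had 1 and 0 counts in the knockdown libraries and 3 and 1 in the Ctrl libraries. Of the 42 windows of genes other than metallothioneins, some of them alternative starts of 1 gene, 21 held a core and the most in any was 3, in the window of SLC30A2. A TATAAA box, in either direction, stood in the windows of MT2A and MT1X, in both windows of SLC30A10 and in 11.5% of all windows, but not in that of MT1H. The GGGCGG box of Sp1-type factors was found 2 times in MT2A, 2 times in MT1X and 5 times in SLC30A1, and at least 2 times in 26.1% of all windows. A match is a description of these letters and not a measured binding site.

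**Figure D1:**
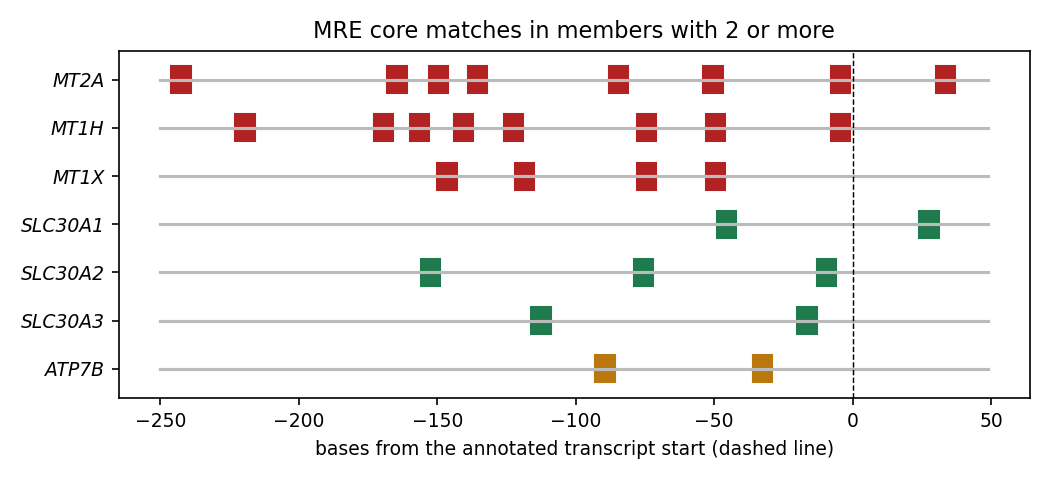
Position of MRE cores (filled boxes) in promoter windows of genes with 2 or more, in bases from the annotated transcript start; grey lines are the windows. MT2A and MT1H hold 8 cores each and MT1X 4, against 3 in SLC30A2 and 2 in SLC30A1; for SLC30A3 and ATP7B the 1 window of several that holds 2 is drawn.

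The 4 libraries held between 14903878 and 19129008 counts. AFF4 itself had 338 and 319 counts in the knockdown libraries, against 1650 and 1033 in the Ctrl libraries, and its log2 fold change was -2.07 ± 0.19 (SE, with an adjusted p of 0.0268 in edgeR, and 0.0552 with a filter of at least 5 CPM in 2 libraries). All 13 erythroid markers of a fixed list, among them GATA1 and KLF1, were above the filter on low counts, as were all 6 megakaryocyte markers. Of 4 T cell markers 3 were at 0 in every library, as were 3 of 4 fibroblast markers (COL1A2, COL3A1 and DCN) and 2 of 4 epithelial markers. The 3 B cell markers summed to 2.05 and 2.32 CPM in the knockdown and 1.71 and 2.41 CPM in Ctrl. The 3 monocyte markers summed to 52.5 and 49.1 CPM in the knockdown and 60.7 and 55.0 CPM in Ctrl. Nearly all of that was LYZ, with 52.0 and 48.6 CPM in the knockdown and 59.9 and 54.3 CPM in Ctrl. The summed level of the erythroid markers was 10169 and 10032 CPM in the knockdown and 13619 and 15327 CPM in Ctrl. The largest parts of that sum were HBG2 (means of 4091 CPM in the knockdown and 6556 CPM in Ctrl) and HBG1 (2292 and 4165 CPM). Taken singly, 8 of the 13 erythroid markers were higher in the knockdown and 5 lower, with 0.06 as the median log2 fold change. By unadjusted p under 0.05 in edgeR, 3 of them were higher and 4 lower. The megakaryocyte markers summed to 1519 and 1639 CPM in the knockdown and 1645 and 2472 CPM in Ctrl, with 5 lower and 1 higher. HBG1 and ITGB3 were the 2 of these markers past the edgeR threshold, both lower in the knockdown. The part of these marker levels in the results below was not tested.

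The 4 metallothioneins with the most counts fell in the knockdown. MT2A, the most abundant of them by count, had 752 and 761 counts in the knockdown libraries, against 5195 and 5002 in the Ctrl libraries. MT1X had 97 and 75 counts in the knockdown and 702 and 643 in Ctrl. MT1G had 60 and 54 counts in the knockdown and 410 and 393 in Ctrl. In each of these genes both knockdown libraries lay below both Ctrl libraries. Scaled for library size, the Ctrl libraries were at 278 and 335 CPM for MT2A and 37.6 and 43.0 CPM for MT1X. For MT1G they were at 22.0 and 26.3 CPM.

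MT1E followed with 65 and 55 counts in the knockdown libraries, against 268 and 224 in the Ctrl libraries. The log2 fold changes were -3.03 ± 0.21 for MT1X, -2.88 ± 0.22 for MT1G, -2.82 ± 0.16 for MT2A and -2.09 ± 0.21 for MT1E (SE). These 4 genes passed the threshold of an adjusted p under 0.05 in edgeR's quasi-likelihood test over all 13572 tested genes (adjusted p = 0.00803, 0.0103, 0.00678 and 0.0268), and they were the 4 of the 43 genes that did. In that test 0.295% of all tested genes were called lower and 0.641% were called in either direction. Since the contrast served to choose these genes, nothing is read from that count. With 1 library left out, log2 fold changes were -3.15 to -2.91 for MT1X and -3.01 to -2.75 for MT1G. They were -2.95 to -2.68 for MT2A and -2.14 to -2.03 for MT1E. The call of MT1E was lost with a filter of at least 5 CPM in 2 libraries (edgeR adjusted p = 0.0573, the highest over 15 alternatives). In bulk RNA, fewer cells that make a transcript and less of it per cell cannot be told apart.

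The other tested metallothioneins, on few counts, had negative log2 fold changes that did not pass. MT1F had 16 and 15 counts in the knockdown libraries and 47 and 31 in Ctrl, and its log2 fold change was -1.37 ± 0.30 (SE, with an edgeR adjusted p of 0.0997). MT1JP, a transcribed pseudogene, had 6 and 6 counts in the knockdown and 50 and 15 in Ctrl, with -2.43 ± 0.58 (adjusted p = 0.118). Its knockdown counts were under the filter's minimum count of 10, so it was tested through its Ctrl counts alone. Its Ctrl libraries differed from each other more than those of any other tested metallothionein, and its log2 fold change was -1.52 without Ctrl 1 and -2.94 without Ctrl 2.

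MT1L, annotated as a transcribed pseudogene, had the smallest difference of the tested family, with 18 and 26 counts in the knockdown libraries and 38 and 32 in Ctrl. Its log2 fold change was -0.72 ± 0.32 (SE; adjusted p = 0.358) and ranged from -1.06 to -0.40 with 1 library left out. MT1F and MT1JP passed without Ctrl 1 (adjusted p = 0.00784 and 0.0313) and without Ctrl 2 (1.40e-04 and 2.48e-10), and over 14 alternatives their adjusted p reached 0.957 and 0.206. Of all genes tested in these fits, 44.0% were called without Ctrl 1 and 48.4% without Ctrl 2, so a call made there says little about a single gene. MT1A had 3 and 0 counts in the knockdown and 4 and 10 in Ctrl, and MT1M had 1 and 0 in the knockdown and 1 and 1 in Ctrl, so no fold change is given for them. A count of 0 in knockdown 2 allows up to 3 counts, or 0.180 CPM, by counting error alone. The related genes MT1B, MT1DP, MT1HL1, MT1IP, MT3 and MT4 were at 0 in all 4 libraries.

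Summed over the 10 genes, metallothionein transcripts made up 57.6 ± 1.84 CPM in the knockdown and 392 ± 46.3 CPM in Ctrl (mean ± SD, n = 2 each). The library sums were 56.3 and 58.9 CPM in the knockdown and 360 and 425 CPM in Ctrl, so the knockdown held 14.7% of the Ctrl level. The sum is not changed by how reads were divided among these 10 genes, but reads given to other family members or dropped for having several matches are outside it. The genes are similar enough to share reads: of all 50-base windows in the GENCODE v29 transcripts of MT1G, 16.5% also occurred in another gene of the family, as did 15.8% for MT1H, 7.10% for MT1E, 3.64% for MT1X and 3.02% for MT2A. Read length and the treatment of reads with several matches are unknown here, so the split among single genes is uncertain.

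**Figure D2:**
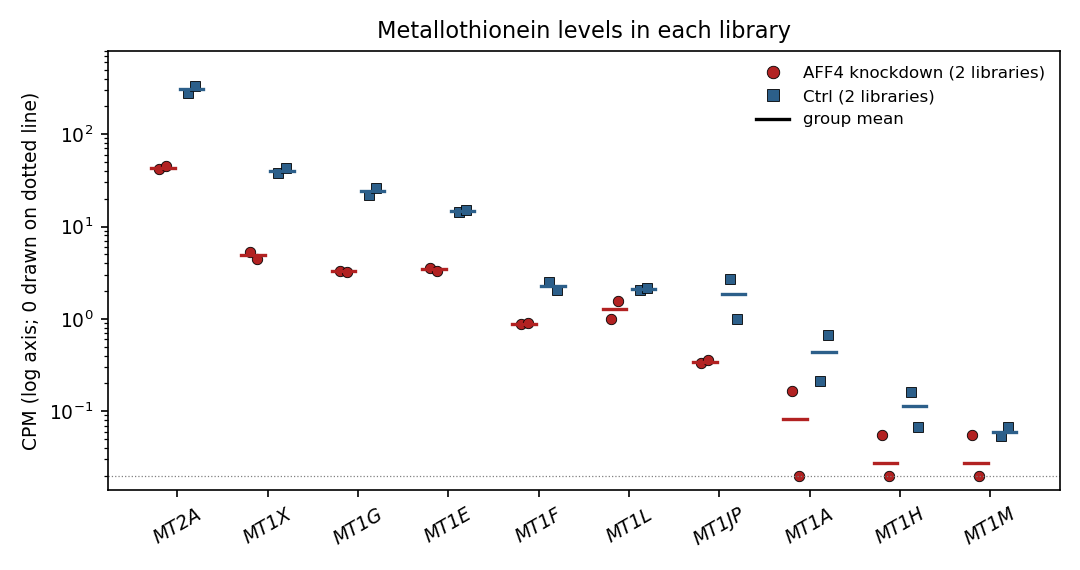
Level of each metallothionein gene (CPM, log axis) in the 2 AFF4 knockdown libraries (circles) and the 2 Ctrl libraries (squares), with group means as bars. In scaled CPM every gene apart from MT1M has both knockdown libraries below both Ctrl libraries, as do 23.0% of all tested genes. The genes right of MT1JP rest on 10 counts or fewer, and MT1H has 1 count in knockdown 1 and in Ctrl 2, so that only the scaling separates these libraries.

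The 10 genes lie within 76.0 kb on chromosome 16, between positions 56608199 and 56684196 (GENCODE v29, GRCh38), all on the plus strand except MT1G. The tested neighbours outside the cluster had far smaller differences. Within 500 kb of either end 10 other genes were tested and 0 were called by edgeR. At an unadjusted p under 0.05 there were 4, where 15.0% of all tested genes were. The log2 fold changes of the 10 genes, 4 negative and 6 positive, lay between -0.57 and 0.44, with a median of 0.02. The nearest tested genes on either side were the ciliary BBSome gene BBS2, with 640 and 644 counts in the knockdown and 750 and 481 in Ctrl, and the nuclear pore gene NUP93, with 1853 and 1808 counts in the knockdown and 1896 and 1670 in Ctrl. Their log2 fold changes were 0.02 ± 0.19 and -0.02 ± 0.15 (SE).

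**Figure D3:**
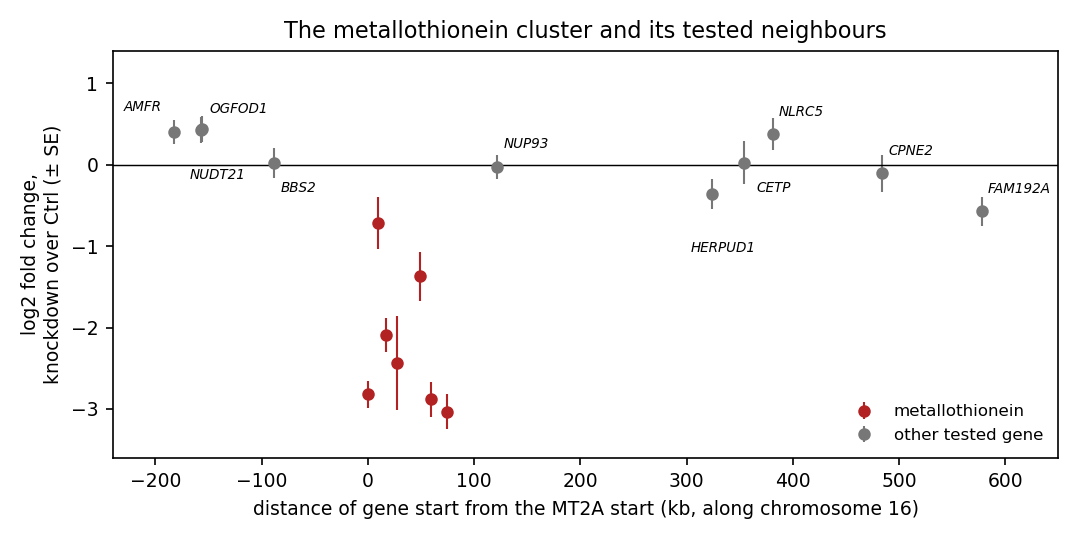
Log2 fold change, AFF4 knockdown over Ctrl (± SE), of tested genes by the distance of their start from that of MT2A (kb). The 7 tested metallothioneins lie between -3.03 and -0.72, and the 10 tested neighbours between -0.57 and 0.44.

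Neither regulator passed the test at the RNA level. MTF1, the zinc sensor, had 530 and 523 counts in the knockdown libraries and 644 and 476 in Ctrl, or 30.2 ± 1.25 CPM in the knockdown and 33.2 ± 1.85 CPM in Ctrl (mean ± SD, n = 2 each). After scaling, its knockdown libraries, at 29.3 and 31.1 CPM, lay below the Ctrl libraries, at 34.5 and 31.9 CPM, without overlap. Its log2 fold change was -0.14 ± 0.17 (SE; edgeR adjusted p = 0.802), between -0.19 and -0.07 over 16 alternatives. MTF2, which shares the name but is a Polycomb-like partner of the histone methyltransferase PRC2, had 2998 and 2613 counts in the knockdown and 3231 and 2039 in Ctrl. Its groups overlapped, with a log2 fold change of 0.05 ± 0.16, and the value was 0.24 without Ctrl 1 and -0.11 without Ctrl 2. The counts measure RNA only, and neither protein nor zinc was measured.

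Among the zinc exporters 1 of the 7 tested genes stood out, SLC30A1 (ZnT1), the exporter of the plasma membrane. It had 131 and 113 counts in the knockdown libraries, against 296 and 198 in the Ctrl libraries, or 6.98 ± 0.374 CPM in the knockdown and 14.6 ± 1.83 CPM in Ctrl (mean ± SD, n = 2 each). Both knockdown libraries lay below both Ctrl libraries. The log2 fold change was -1.06 ± 0.21 (SE) and did not pass the edgeR test (adjusted p = 0.0797). It passed in DESeq2 (adjusted p = 0.0145) and not in limma-voom (adjusted p = 0.0790). Its log2 fold change lay between -1.18 and -0.92 over 16 alternatives.

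The exporters of organelles lay nearer to 0. SLC30A5 and SLC30A6, which form a heterodimer in the early secretory pathway, had log2 fold changes of 0.02 ± 0.15 and 0.04 ± 0.19 (SE), the Golgi exporter SLC30A7 had -0.29 ± 0.20, and SLC30A9, known for its role in mitochondrial zinc, had -0.03 ± 0.17. SLC30A9, the most abundant by count after SLC30A6, had 1461 and 1289 counts in the knockdown and 1680 and 1054 in Ctrl. SLC30A10, a manganese exporter, had 114 and 88 counts in the knockdown and 111 and 83 in Ctrl (0.0033 ± 0.22). In each of these genes the groups overlapped.

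SLC30A3, known from synaptic vesicles, had 35 and 59 counts in the knockdown and 46 and 87 in Ctrl, and its log2 fold change of -0.59 ± 0.46 was -1.11 without Ctrl 1 and 0.13 without Ctrl 2. Without Ctrl 2 SLC30A6 was at -0.18, SLC30A7 at -0.46 and SLC30A9 at -0.19, and without Ctrl 1 SLC30A6 was at 0.30. SLC30A2, the exporter of milk zinc, had 4 and 3 counts in the knockdown and 6 and 9 in Ctrl, and SLC30A4 had 0 and 0 in the knockdown and 0 and 1 in Ctrl.

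Of the 11 tested zinc importers, 8 had a negative and 3 a positive log2 fold change, with a median of -0.26, against -0.0089 over all tested genes. None of the 11 passed the edgeR test. By unadjusted p under 0.05, 2 were lower and 1 higher, where 8.19% of all tested genes were lower and 6.79% higher. In DESeq2 1 of them passed, and in limma-voom none of the 43 genes other than the 4 called metallothioneins did. SLC39A8 (ZIP8), a zinc and manganese importer, had 5378 and 4861 counts in the knockdown libraries, against 3724 and 2276 in the Ctrl libraries. Both knockdown libraries lay above both Ctrl libraries, at 293 ± 6.04 CPM in the knockdown and 176 ± 33.3 CPM in Ctrl (mean ± SD, n = 2 each). Its log2 fold change was 0.74 ± 0.17 (SE, adjusted p = 0.105 in edgeR), from 0.55 without Ctrl 2 to 0.95 without Ctrl 1. It passed in DESeq2 (adjusted p = 0.0161) and not in limma-voom (adjusted p = 0.104).

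SLC39A14 (ZIP14), the closest relative of SLC39A8 and an importer of zinc, iron and manganese, lay on the other side. It had 1555 and 1364 counts in the knockdown libraries, against 2252 and 1648 in the Ctrl libraries, and its log2 fold change was -0.47 ± 0.15 (SE, adjusted p = 0.204 in edgeR). SLC39A6 (ZIP6), which pairs with ZIP10 at the cell surface, had 698 and 690 counts in the knockdown and 1020 and 757 in Ctrl, with -0.40 ± 0.16 (adjusted p = 0.312). SLC39A10 (ZIP10) had 750 and 714 counts in the knockdown and 1121 and 711 in Ctrl, with -0.36 ± 0.18 (adjusted p = 0.424). In scaled CPM the groups of all 3 genes did not overlap, although 711 counts in Ctrl 2, a smaller library, is below the knockdown counts of SLC39A10. With 1 library left out, the log2 fold changes ranged from -0.53 to -0.40 for SLC39A14, -0.46 to -0.33 for SLC39A6 and -0.52 to -0.18 for SLC39A10.

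SLC39A1 (ZIP1), a plasma membrane importer, had 1803 and 1797 counts in the knockdown and 2030 and 2094 in Ctrl, with a log2 fold change of -0.27 ± 0.17 (SE). The Golgi importer SLC39A9 had -0.26 ± 0.15, and SLC39A11 had 0.24 ± 0.17. Leaving out 1 library gave -0.44 to -0.08 for SLC39A1, -0.32 to -0.20 for SLC39A9 and 0.17 to 0.31 for SLC39A11. For SLC39A3, SLC39A4, SLC39A7 and SLC39A13 the groups overlapped. SLC39A3 (ZIP3) had 1355 and 1317 counts in the knockdown and 1050 and 1532 in Ctrl, and its log2 fold change of -0.05 ± 0.27 was -0.42 without Ctrl 1 and 0.44 without Ctrl 2. SLC39A4, the importer of dietary zinc that is mutated in acrodermatitis enteropathica, had -0.24 ± 0.31 (-0.63 without Ctrl 1 and 0.29 without Ctrl 2). SLC39A7, which releases zinc from the endoplasmic reticulum, had -0.32 ± 0.26 (-0.60 without Ctrl 1 and 0.03 without Ctrl 2). SLC39A13 had 0.10 ± 0.32 (-0.31 without Ctrl 1 and 0.66 without Ctrl 2).

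Copper genes had a median log2 fold change of -0.03 over 10 tested genes, 6 of them negative and 4 positive, and 0 passed edgeR, DESeq2 or limma-voom. By unadjusted p under 0.05 in edgeR, 2 were higher, where 6.79% of all tested genes were. The copper importer of the plasma membrane, SLC31A1 (CTR1), had 639 and 622 counts in the knockdown libraries and 888 and 574 in Ctrl, with a log2 fold change of -0.25 ± 0.18 (SE). Its relative SLC31A2 (CTR2) had 22 and 24 counts in the knockdown and 15 and 9 in Ctrl, with 0.88 ± 0.35 (edgeR adjusted p = 0.301). ATP7A, the copper pump mutated in Menkes disease, had 245 and 208 counts in the knockdown and 172 and 105 in Ctrl, with 0.67 ± 0.22 (adjusted p = 0.218). In both SLC31A2 and ATP7A the knockdown libraries lay above the Ctrl libraries. Leaving out 1 library gave log2 fold changes of 0.49 to 0.88 for ATP7A and -0.40 to -0.09 for SLC31A1.

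ATP7B, the pump mutated in Wilson disease and the copper gene with the most counts, had 2397 and 2221 counts in the knockdown and 2396 and 2324 in Ctrl, with a log2 fold change of -0.10 ± 0.15 (SE). The chaperone ATOX1, which hands copper to both pumps, had 0.08 ± 0.20, and COMMD1, which takes part in sorting them, had 0.15 ± 0.20. The mitochondrial copper carriers COX17 and SCO1, which supply cytochrome c oxidase, had -0.12 ± 0.21 and -0.20 ± 0.17. Their relative SCO2 had 163 and 156 counts in the knockdown and 113 and 191 in Ctrl (-0.03 ± 0.34), and CCS, the chaperone of SOD1, had 515 and 475 in the knockdown and 394 and 553 in Ctrl (-0.03 ± 0.27). The last 2 genes were lower without Ctrl 1 (-0.48 for SCO2 and -0.38 for CCS) and higher without Ctrl 2 (0.59 and 0.42). Without Ctrl 1, ATP7B was at -0.23 and COMMD1 at 0.33, and ATOX1 and COX17 turned to -0.063 and 0.13. Without Ctrl 2, COX17 was at -0.33 and SCO1 at -0.33, and ATP7B and COMMD1 turned to 0.042 and -0.014.

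**Figure D4:**
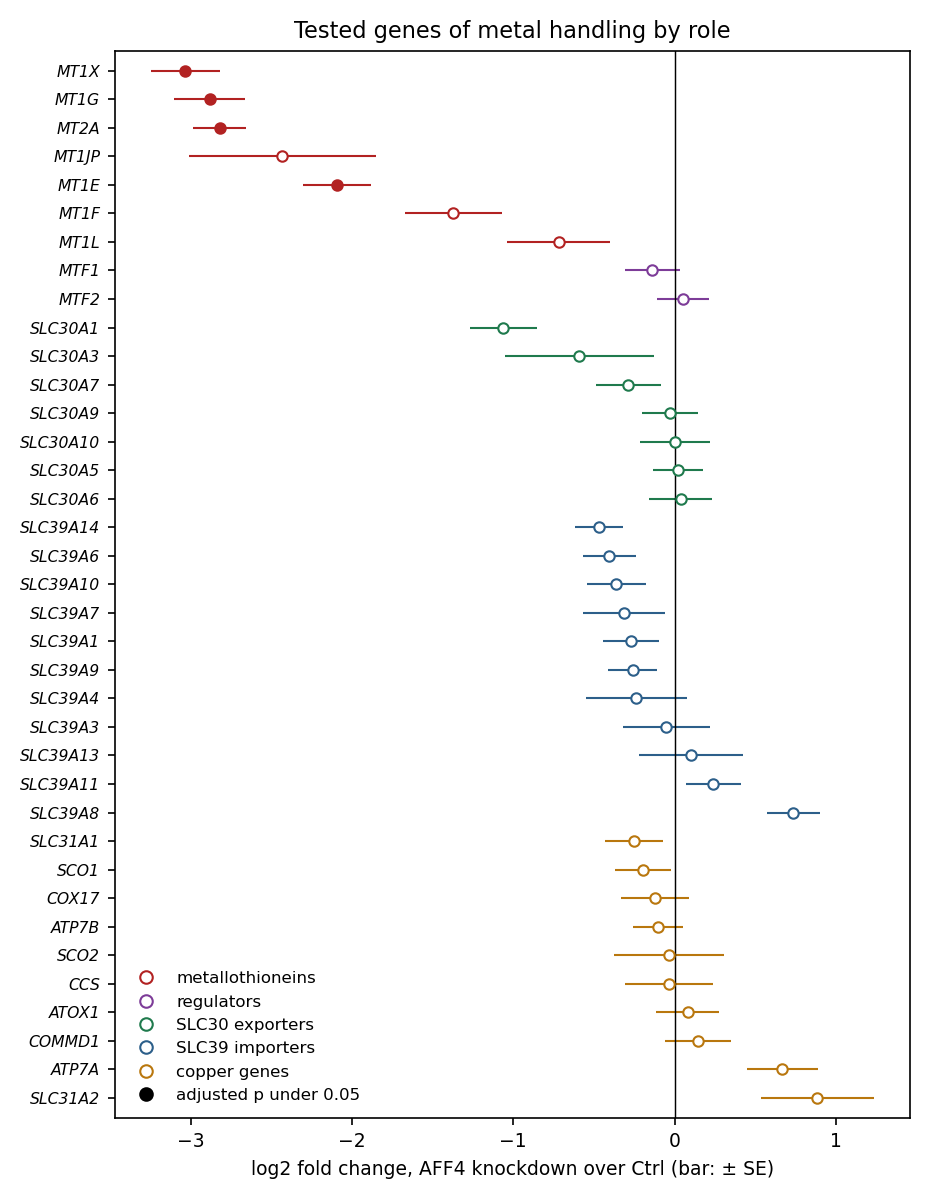
Log2 fold change, AFF4 knockdown over Ctrl (± SE), of the 37 tested genes by role; filled circles passed the edgeR test. The 4 filled circles are metallothioneins between -3.03 and -2.09, and outside that family SLC30A1 is lowest (-1.06) and SLC31A2 highest (0.88).

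The ratio between the 2 Ctrl libraries varied with the GC content of the transcript. The part of this in the direction changes of single genes was not tested. Across 36 of the tested genes with a GC value, the log2 ratio of Ctrl 2 over Ctrl 1 had a Spearman rho of 0.67 with GC content, and the log2 ratio of knockdown 2 over knockdown 1 a rho of 0.44. Across 13175 tested genes the same values were 0.82 for Ctrl and 0.41 for the knockdown. These are descriptions across genes that share the same libraries. CCS, with a GC content of 63.1%, lay 0.81 higher in Ctrl 2 than in Ctrl 1 on the log2 scale, and SLC30A6, with 37.7%, lay 0.48 lower.

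The spread that the fit estimated depended on the libraries in it. The common biological coefficient of variation was 0.153 over all 4 libraries, 0.0350 without Ctrl 1 or without Ctrl 2, and 0.218 and 0.215 without knockdown 1 and knockdown 2. Of the 33 genes other than metallothioneins, 0 passed with all libraries, 17 without Ctrl 1, 18 without Ctrl 2 and 0 without either knockdown library. Of all genes tested in the same fits, 44.0% were called without Ctrl 1 and 48.4% without Ctrl 2. The shares were 0.331% without knockdown 1 and 0.366% without knockdown 2. Nothing is read from the calls of the listed genes in these fits. A GC trend was also removed from each library, a step chosen after the data were seen. With all libraries and this step, 9 of the 33 genes passed, where 27.0% of all tested genes did. These were SLC30A1 (-1.02), SLC39A14 (-0.48), SLC39A6 (-0.39), SLC39A10 (-0.32), SLC39A1 (-0.26), SLC39A9 (-0.26) and SLC31A1 (-0.25), which were lower, and SLC39A8 (0.74) and ATP7A (0.71), which were higher. In that fit MT1F and MT1JP passed as well (edgeR adjusted p = 0.0227 and 0.0342), and of all tested genes 1793 were called higher and 1867 lower.

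**Figure D5:**
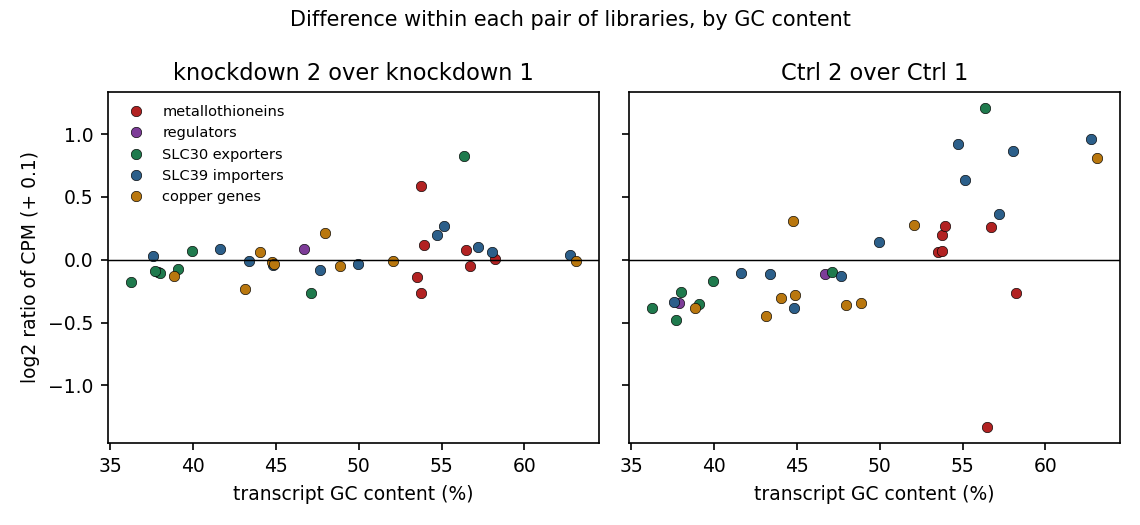
Log2 ratio of CPM (with 0.1 added) between the 2 libraries of a group, by transcript GC content, for 36 tested genes; the left panel shows knockdown 2 over knockdown 1 and the right panel Ctrl 2 over Ctrl 1. The Ctrl ratios rise with GC content (rho of 0.67), with the metallothionein pseudogene MT1JP as the lowest point, and the knockdown ratios spread less.

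Counted by overlap alone, 16 of the 37 tested genes had both knockdown libraries below both Ctrl libraries and 4 had both above, whereas 23.0% and 23.1% of all tested genes did so. All 7 tested metallothioneins were among the 16. Of the 37 genes 26 had a log2 fold change under 0, as did 51.2% of all tested genes. Since the contrast served to choose these genes, nothing is read from these counts. Among the 30 tested genes other than metallothioneins, 9 had both knockdown libraries below both Ctrl libraries, 4 had both above, and 19 had a log2 fold change under 0. The median log2 fold change was -2.43 over the 7 tested metallothioneins and -0.08 over the 30 other tested genes of the list. That -2.43 is the value of MT1JP, which passed the filter through its Ctrl counts alone.

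Genes that cadmium or excess zinc induces along with metallothioneins had smaller differences. Of 15 such genes 12 had a negative and 3 a positive log2 fold change, with a median of -0.23 and a range from -0.73 to 0.42, and 0 passed edgeR. By unadjusted p under 0.05, 1 was lower and 1 higher, where 8.19% of all tested genes were lower and 6.79% higher. The lowest was the autophagy receptor SQSTM1, with 1346 and 1282 counts in the knockdown and 1979 and 2145 in Ctrl (-0.73 ± 0.18, SE; adjusted p = 0.133). The highest was GCLC, the catalytic subunit of glutathione synthesis, with 1681 and 1550 counts in the knockdown and 1408 and 939 in Ctrl (0.42 ± 0.16; adjusted p = 0.286). Heme oxygenase HMOX1 had 76 and 82 counts in the knockdown and 105 and 80 in Ctrl (-0.28 ± 0.22).

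Of 10 glucocorticoid-induced genes 7 had a negative and 3 a positive log2 fold change, with a median of -0.18, and 0 passed edgeR. By unadjusted p under 0.05, 2 were lower, where 8.19% of all tested genes were. TSC22D3 (GILZ) had 277 and 229 counts in the knockdown libraries, against 514 and 452 in the Ctrl libraries, with -0.998 ± 0.19 (SE; edgeR adjusted p = 0.0728). FKBP5, a sensitive reporter of the glucocorticoid receptor in many cells, had a mean of 174 CPM in the knockdown and 172 CPM in Ctrl, and a log2 fold change of 0.02 (adjusted p = 0.975). NFKBIA had -0.42 ± 0.18 (adjusted p = 0.326).

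A list of 40 copper enzymes and other copper-handling genes had 39 in the table and 34 tested. Of these, 18 had a negative and 16 a positive log2 fold change, with a median of -0.05, and 0 passed edgeR. By unadjusted p under 0.05, 2 were lower and 1 higher, where 8.19% of all tested genes were lower and 6.79% higher. COMMD9, a relative of COMMD1, had 241 and 221 counts in the knockdown and 147 and 111 in Ctrl (0.79 ± 0.19, SE; adjusted p = 0.124). The copper amine oxidase AOC3 had 20 and 14 counts in the knockdown and 37 and 29 in Ctrl (-1.01 ± 0.31; adjusted p = 0.193), and the lysyl oxidase LOX had 27 and 25 counts in the knockdown and 44 and 37 in Ctrl (-0.69 ± 0.27; adjusted p = 0.289). Among zinc transport genes outside the 43, 1 of 4 was tested: TMEM163, a vesicular zinc transporter, had 299 and 297 counts in the knockdown and 428 and 377 in Ctrl (-0.49 ± 0.18; adjusted p = 0.272).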

How the data were processed

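The deposited values are whole-number counts of reads per gene symbol in 4 HEL libraries. The submitters' processing notes name hg38 as the build and list featureCounts 1.6.1, HISAT2 2.1.0 and fastp 0.13.1 as software. Strand setting, gene annotation and the handling of reads with several matches are unknown here. Reads are not counted by molecular identifiers, so floors cover counting error only.

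Counts were tested with edgeR 4.0.16 in R 4.3.3 (filterByExpr at a minimum count of 10 and total of 15, TMM scaling, quasi-likelihood F test, Benjamini-Hochberg adjustment over 13572 genes, called at an adjusted p under 0.05). Each SE was obtained as |log2 fold change| over √F. Alternatives were other scalings and filters, DESeq2 1.42.0, limma-voom (limma 3.58.1), leaving out 1 library at a time, a replicate block, and a GC correction added after seeing the data (lowess, span 0.4). The code was tested on simulated data. Positions, transcript GC content and lengths came from GENCODE v29, which gave 97.1% of tested genes a GC value, and promoter windows from RefSeq.

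Genes named were all metallothioneins, MTF1, MTF2, and the other genes by call, unadjusted p, size or role. The genes and lists were chosen with earlier results of these data known. The wider lists cover metallothionein relatives, zinc transport, copper handling, metal-induced genes, glucocorticoid-induced genes and cell type markers.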

Additional observations from a re-analysis of the deposited data

How the results depend on the processing

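The 4 metallothionein calls held under RLE, upper quartile and library-size scaling and in DESeq2 and limma-voom. These genes were chosen with this contrast known, so nothing is read from the calls holding. With a filter of 5 CPM in 2 libraries 3 remained called, 1 gene in all was higher and 4 lower; at an adjusted p under 0.01 the genes were 1 and 2, with 2 of the 43 called lower. The main fit called 47 of 13572 tested genes higher and 40 lower. With no filter 328 genes were higher and 406 lower, and 1 and 7 of the 43, 2 of them not metallothioneins. Where more of the 43 were called than in the main fit, more of all genes were called too. Nothing is read from the added calls. DESeq2 gave 185 and 212, with 1 of the 43 higher and 2 called outside the metallothioneins. The replicate numbers are not stated to pair the libraries; same-numbered libraries deviated together with a correlation of 0.29, and the replicate block gave 408 higher and 480 lower, 1 and 7 of the 43, 2 of them not metallothioneins (MT1F, MT1JP, SLC30A1 and SLC39A8 were added). The GC correction gave 1793 and 1867, 2 and 13 of the 43 and 9 outside the metallothioneins; with the replicate block it gave 2265 and 2332, 2 and 15, and 11. With 1 library left out, 35 to 3407 genes were higher and 11 to 3315 lower, 0 to 7 of the 43 were higher and 4 to 18 lower, 0 to 18 of them not metallothioneins, and the ratio of summed metallothionein CPM, knockdown over Ctrl, was 0.136 to 0.160 (0.147 with all libraries). In those fits the lone library is taken to vary as the libraries of the complete group do. With the metallothioneins summed into 1 feature, 0 other genes of the list passed.

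Log2 fold changes near 0 changed sign. These were SLC30A9 with library-size scaling (0.0018), the GC correction (0.0027) and the GC correction with the replicate block (0.0029); SLC30A5 with the stricter filter (-0.0095); SLC30A10 with the stricter filter (-0.029), limma-voom (-0.0025), the GC correction (-0.0079) and the same with the block (-0.0047); and SLC39A3 with limma-voom (0.021), the block (0.0096) and both corrections (0.0031). CCS (0.031, 0.017, 0.025 and 0.023 in limma-voom, the block, the GC correction and both) and SCO2 (0.073 in limma-voom, 0.039 with the block and 0.017 with both) did as well. With 1 library left out, the ranges that crossed 0 were -0.11 to 0.24 for MTF2, -1.11 to 0.13 for SLC30A3, -0.060 to 0.11 for SLC30A5, -0.18 to 0.30 for SLC30A6, -0.19 to 0.16 for SLC30A9, -0.11 to 0.13 for SLC30A10, -0.42 to 0.44 for SLC39A3, -0.63 to 0.29 for SLC39A4, -0.60 to 0.03 for SLC39A7, -0.31 to 0.66 for SLC39A13, -0.063 to 0.24 for ATOX1, -0.38 to 0.42 for CCS, -0.23 to 0.042 for ATP7B, -0.33 to 0.13 for COX17, -0.48 to 0.59 for SCO2 and -0.014 to 0.33 for COMMD1. The cause of these shifts was not tested.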

Other observations

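MT2A and MT1X led the metallothionein counts in every library. MT1E stood behind MT1G in both Ctrl libraries and close to it in the knockdown libraries (65 against 60 counts and 55 against 54). MT2A took 73.8% (exact 95% binomial interval 71.0% to 76.5%) and 76.7% (74.0% to 79.3%) of the summed metallothionein counts in knockdown 1 and 2. In Ctrl 1 and 2 it took 77.3% (76.3% to 78.3%) and 78.7% (77.7% to 79.7%), so intervals of the groups overlap. MT1E took 6.38% (exact 95% binomial interval 4.96% to 8.06%) and 5.54% (4.20% to 7.16%) in the knockdown libraries, against 3.99% (3.53% to 4.49%) and 3.53% (3.09% to 4.01%) in the Ctrl libraries. The MT1E intervals of knockdown 2 and Ctrl 1 overlap. MT1L took 1.77% (1.05% to 2.78%) and 2.62% (1.72% to 3.82%) in the knockdown and 0.566% (0.401% to 0.776%) and 0.504% (0.345% to 0.710%) in Ctrl. MT1G took 5.89% (4.52% to 7.51%) and 5.44% (4.12% to 7.04%) in the knockdown, where its intervals overlap those of MT1E, and 6.10% and 6.19% in Ctrl. These intervals cover counting error only, and reads shared between the genes can move the shares.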
